A study of Mus musculus with 46 samples.

Results

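The genes described here encode the core of the spliceosome and the RNA-binding proteins that steer it, measured in cultured mouse ovarian follicles during the hours after an ovulatory stimulus. Rows of the deposited count table were taken whose symbols begin with Srsf and a digit (SR proteins), Hnrnp (heterogeneous nuclear ribonucleoproteins, hnRNPs), Snrp (proteins of the small nuclear ribonucleoproteins, snRNPs) or Sf3a or Sf3b and a digit (subunits of splicing factor 3, a part of the U2 snRNP). The name pattern matched 52 of 25147 genes. Srsf12 had 0 counts in all 6 batch 2 follicles at 1 h and 4 h and was left out, so 51 genes remained: 10 SR protein genes, 20 hnRNP genes, 12 snRNP genes and 9 SF3 genes. A filter on low counts kept 50 of the 51 for testing, and Hnrnpul2 did not pass it.

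Single follicles of the outbred strain CD-1 were grown in alginate for 8 days, taken out of the gel and moved to maturation medium. That medium held hCG at 1.5 IU/ml, which acts on the LH receptor, with EGF at 10 ng/ml, rFSH at 10 mIU/ml and serum. Follicles were frozen at 0 h (9 follicles, all of batch 2), 1 h (10 of batch 1 and 3 of batch 2), 4 h (10 of batch 1 and 3 of batch 2) and 8 h (11 of batch 1). The labels place the batch 1 follicles of 1 h and 8 h on plate 1 and those of 4 h on plate 2, so plate and time cannot be told apart within batch 1 in any comparison with 4 h. No group was described as held in hCG-free medium over those hours, and every follicle after 0 h had also met EGF and serum. They do not tie follicles to animals, so p-values here measure the spread between follicles, some of which may share an animal.

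The SR proteins bind short exonic sequences through RNA recognition motifs and, through arginine-serine tails that CLK and SRPK kinases phosphorylate, bring U1 and U2 snRNPs to splice sites. The hnRNPs coat nascent transcripts and often act against SR proteins at the same exons, with roles in RNA export and stability as well. Sm proteins form a ring on the U1, U2, U4 and U5 RNAs, and the SF3A and SF3B complexes hold the U2 snRNP on the branch point. In the ovary, the surge of LH changes transcription in granulosa and cumulus cells within hours, and the new transcripts pass through this machinery.

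Libraries held 241442 to 5185044 adjusted counts, and the group medians were 3286107 before hCG, 730895 after 1 h, 1432395 after 4 h and 1755429 after 8 h. The 1 h group thus had the lowest median depth, and precision was not compared between times. A set of 3332 genes at 0 in all 6 batch 2 follicles after hCG held between 22.6% and 46.2% of counts at 0 h and at most 0.0667% later, so scaled 0 h values differ with or without them. Summed CPM (counts per 1000000 counts, scaled with TMM factors) of all 8 granulosa markers had medians of 38479 at 0 h, 32327 and 23460 at 1 h in batches 1 and 2, 28160 and 15143 at 4 h, and 14495 at 8 h. Those of 10 oocyte markers had medians between 15.1 and 30.7 CPM in every group of time and batch, so oocyte transcripts were sparse. Those of 6 smooth muscle markers had medians of 142 CPM at 0 h, 1235 and 1104 at 1 h, 735 and 898 at 4 h, and 237 at 8 h, and those of 10 theca and stroma markers 799, 1428 and 1261, 247 and 693, and 234 CPM. Those of 4 cumulus markers (Ptx3, Has2, Tnfaip6 and Amh, which is also among the granulosa markers) had medians of 1.9 CPM at 0 h, 20.9 and 37.5 at 1 h, 1416 and 177 at 4 h, and 350 at 8 h. The short lists for endothelium, leukocytes and surface epithelium had medians of at most 31.1 CPM in any group. In whole follicles, more or fewer cells of a type and more or less of these RNAs per cell cannot be told apart. The part of these shifts in the results on splicing genes was not tested.

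At 4 h after hCG, 23 of the 50 genes were higher than at 1 h, and at 8 h 21 were lower than at 4 h. These counts include 11 and 10 of the 19 tested hnRNP genes, the class with the most genes, and 3 and 5 of the 10 SR protein genes. Calls are those of edgeR's quasi-likelihood test in 1 fit of time and batch over all 46 follicles, with Benjamini-Hochberg adjustment over 8629 genes and a threshold of 0.05 on the adjusted p. The 23 rises at 4 h against 1 h compare with a background in which 26% of all genes tested rose, and 4 genes fell, where 28.9% of all genes did. The median fitted log2 fold change was 0.36 for the splicing genes and -0.06 for all genes. At 8 h against 4 h, 2 rose and 21 fell, against 19.8% and 21.6% of all genes, with medians of -0.34 and 0.00 on the log2 scale. Of the cumulus markers, 3 were tested, and 3 rose at 4 h against 1 h and 2 fell at 8 h against 4 h. Their part in the counts of splicing genes was not tested. With plate 1, plate 2 and batch 2 as 3 separate levels in place of batch, the step at 4 h is left to the batch 2 follicles. In that fit 17 splicing genes were called at 4 h against 1 h and 10 at 8 h against 4 h. Of all 8629 genes, 2054 and 1446 were called. Of the named genes, Hnrnph1, Hnrnpu, Hnrnpul1, Sf3b1, Snrpd1, Srsf5 and Srsf6 lost their calls at 4 h against 1 h in that fit, and Hnrnpa1, Hnrnpa2b1, Hnrnph1, Hnrnph3, Hnrnpu, Hnrnpul1, Sf3b4, Snrpa1, Snrpb, Snrpd1 and Snrpg at 8 h against 4 h. With all libraries thinned to 241442 counts, 37 of the splicing genes could be tested, and 7 and 3 were called. Of all 3636 genes tested at that depth, 861 and 433 were called. At 1 h against 0 h, 6 rose and 14 fell, beside 12.4% and 22.2% of all genes, so the rises were at the share of all genes and the falls, at 28.0%, a little above it, with medians of -0.13 and -0.19. Without replicate 11 of 1 h these counts were 8 and 8, and without replicate 12 of 1 h they were 8 and 9. Over all genes they were then 995 and 1369 of 8598, and 1170 and 1500 of 8585. Before deposit the authors adjusted the counts for batch with settings not given in the sources used here. All 0 h follicles are of batch 2 and all 8 h follicles of batch 1, so in fold changes that set these times against follicles of the other batch, the adjustment and time cannot be told apart.

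At 4 h against 0 h, 18 rose and 8 fell, beside 21.9% and 32.2% of all genes, with a median log2 fold change of 0.21 for the splicing genes and -0.12 for all genes. At 8 h against 0 h, 5 rose and 11 fell, beside 17.5% and 27.6% of all genes (medians -0.07 and -0.15). Without replicate 11 of 1 h, 9 rose and 9 fell, where 1678 and 1915 of all 8598 genes did. At 8 h against 1 h, which lies on 1 plate, 9 rose and 11 fell, beside 23.2% and 25.9% of all genes (medians 0.04 and -0.02). These 6 comparisons share follicles and are not independent of each other. The splits against 0 h moved with the scaling. On log2(TPM + 1) as deposited, limma gave 16 higher and 7 lower at 1 h, 31 and 2 at 4 h, and 24 and 3 at 8 h. Of all 11834 genes, 1926 and 2058, 3348 and 2515, and 3368 and 1950 were called higher and lower. With TPM rescaled after leaving out the 3332 genes, limma gave 3 and 21, 14 and 9, and 6 and 11. Of all 11159 genes then tested, 671 and 4180, 1620 and 3825, and 1619 and 3085 were called higher and lower. On deposited and on rescaled TPM the median of all genes was -0.02 and -0.47 on the log2 scale at 1 h, 0.15 and -0.28 at 4 h and 0.23 and -0.20 at 8 h, beside -0.19, -0.12 and -0.15 in the count fit.

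Asked whether a gene differed among the 4 times at all, edgeR called 41 of the 50 genes, a share of 82.0%, close to the 79.8% of all genes. Of the 41, 22 had their highest fitted mean at 4 h, 13 before hCG, 4 at 1 h and 2 at 8 h. Of the 6883 genes called among all genes tested, 1555 had their top at 4 h, 2782 before hCG, 1146 at 1 h and 1400 at 8 h. For hnRNP genes 12 of the 16 called were highest at 4 h, and for SF3 genes 5 of the 8 called were highest at 0 h. The 7 genes called in none of the 6 comparisons were Hnrnpll, Sf3a2, Snrpc, Snrpd2, Snrpn, Srsf1 and Srsf3. Srsf3, an SR protein with a part in mRNA export, had mean levels of 466 ± 158 CPM at 0 h and 439.6 ± 62.7 CPM at 8 h (SD, n = 9 and 11). At 1 h and 4 h its means were 464 ± 74.7 and 359 ± 62.4 CPM in batch 1 (SD, n = 10 each). In batch 2 they were 349 ± 120 and 415 ± 109 CPM (SD, n = 3 each), so the batches differed in direction. On the deposited TPM scale limma put Srsf3 higher at 8 h than at 0 h, by 0.51 on the log2 scale.

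**Figure D1:**
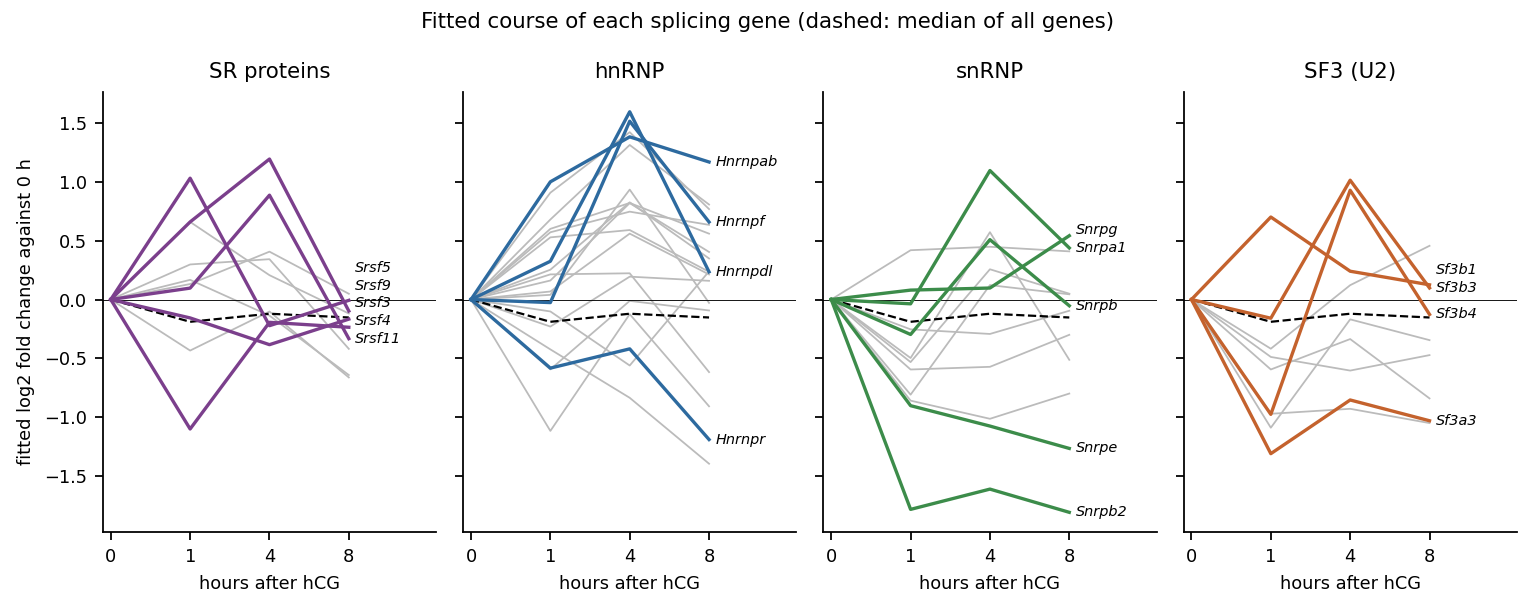
Fitted log2 fold change against 0 h (vertical axis) at 0, 1, 4 and 8 hours after hCG, drawn at even steps, for each of the 50 tested genes by class. Coloured lines are named genes, grey lines the rest, and the dashed line is the median of all genes. Most hnRNP lines have their top at 4 h, where Hnrnpdl reaches 1.59 and Hnrnpf 1.51, while Snrpb2 and Sf3a3 lie below 0 at all later times.

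Promoters of 4 genes with unlike courses, all holding the ETS motif named below, are shown, since these genes carry much of what follows. RefSeq's GRCm38.p6 table gave 62 promoters for 45 of the 51 genes, and each motif was looked for on both strands in the 250 bases before the start. The ETS motif CCGGAAGT was found in 9 of the 62, a share of 14.52%, against 2.88% of all 32851 promoters, and the genes holding it were Hnrnpd, Hnrnpf, Sf3a3, Sf3b2, Srsf11, Srsf4 and Srsf5. TGACG, the half-site of the cyclic AMP response element, was in 37.1% of them against 17.77% of all promoters, and the full element TGACGTCA in 3.23% against 1.55%, in Snrpa and Snrpg. The E-box CACGTG was in 8.06% against 6.02%, and CCAAT in 43.55% against 33.85%. A match is a description of letters and not a site of binding. The last 100 bases before the start are given on the strand of the gene, 5′ to 3′, with the ETS motif or the half-site in capitals. Hnrnpf (1 of its 4 promoters, chr6:117900240-117900339, plus strand) and Srsf11 (1 of its 2, chr3:158031749-158031848, minus strand) had their highest fitted means at 4 h, Srsf5 (chr12:80945399-80945498, plus strand) at 1 h, and Sf3a3 (chr4:124714761-124714860, plus strand) at 0 h. In Srsf5 the second ETS motif and the half-site share 1 base.
Hnrnpf: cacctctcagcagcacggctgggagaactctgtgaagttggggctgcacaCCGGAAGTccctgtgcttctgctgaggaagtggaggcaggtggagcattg
Srsf11: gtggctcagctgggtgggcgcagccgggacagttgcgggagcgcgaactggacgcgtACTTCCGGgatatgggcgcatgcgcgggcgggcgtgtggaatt
Srsf5: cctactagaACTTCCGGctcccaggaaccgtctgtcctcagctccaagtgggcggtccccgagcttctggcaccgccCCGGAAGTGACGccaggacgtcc
Sf3a3: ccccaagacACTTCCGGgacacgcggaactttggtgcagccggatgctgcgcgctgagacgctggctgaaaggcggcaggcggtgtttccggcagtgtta
These 4 genes all hold the same 8 letters and were shown for their unlike courses. That the letters stood before genes highest at 1 h, at 4 h and at 0 h therefore follows from the choice. Whether genes with the motif differ in course from genes without it was not tested.

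Among hnRNP genes, 11 of 19 rose and 2 fell at 4 h against 0 h, 11 rose and 1 fell at 4 h against 1 h, and 1 rose and 10 fell at 8 h against 4 h. Over all genes the shares were 21.9% and 32.2%, 26% and 28.9%, and 19.8% and 21.6% in the same order. Hnrnpf, whose protein binds runs of G beside regulated exons, had the largest rise of the class at 4 h against 1 h. Its lowest, median and highest values were 229, 432 and 549.8 CPM at 0 h and 381, 455 and 592 CPM in batch 1 at 1 h. The 3 batch 2 follicles at 1 h had 343, 383 and 354 CPM. At 4 h the values were 1090.0, 1198 and 1694 CPM in batch 1, and 1514, 1315 and 1303 CPM in the 3 batch 2 follicles, before 603, 725 and 845 CPM at 8 h. Every follicle at 4 h lay above every follicle of the other times, in both batches. Hnrnpf was 2.91-fold higher at 4 h than at 1 h (log2 fold change 1.54 ± 0.11 SE, adjusted p = 9.5e-17, edgeR) and fell by 0.86 ± 0.11 on the log2 scale at 8 h against 4 h (adjusted p = 3.6e-08, edgeR). The rise was 1.48 in batch 1 alone and 1.97 in batch 2 alone on the log2 scale. At 1 h against 0 h it was not called (-0.03), and on the deposited TPM scale that value was 0.42.

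Hnrnpdl, a relative of the AU-rich element binding protein AUF1, had a similar course with more spread in batch 2. Its lowest, median and highest values were 46.0, 72.7 and 114 CPM at 0 h, 40.6, 106 and 136 CPM in batch 1 at 1 h, 154, 264 and 317 CPM in batch 1 at 4 h, and 67.5, 101 and 127 CPM at 8 h. The 3 batch 2 follicles had 100.0, 99.3 and 123 CPM at 1 h, and 331, 162 and 146 CPM at 4 h. In both batches the follicles at 4 h were above those at 1 h without overlap, and 1 of the 3 batch 2 follicles lay far above the others at 4 h. Hnrnpdl was 3.02-fold higher at 4 h than at 0 h (log2 1.59 ± 0.21 SE, adjusted p = 1.4e-08) and 2.56-fold lower at 8 h than at 4 h (log2 -1.36 ± 0.16 SE, adjusted p = 2.3e-09, both edgeR). Against 1 h the rise was 1.41 in batch 1 alone and 1.02 in batch 2 alone on the log2 scale, and batch 2 alone did not call it.

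Hnrnph1, Hnrnpab and Hnrnpa2b1 were called higher than at 0 h at each later time. Hnrnph1, which binds G runs as Hnrnpf does, was higher than at 0 h by 0.91, 1.42 and 0.77 on the log2 scale at 1, 4 and 8 h, and each was called. It averaged 101 ± 26.4 CPM at 0 h, 197 ± 35.0 CPM in batch 1 at 1 h, 291 ± 57.2 CPM in batch 1 at 4 h and 183 ± 51.0 CPM at 8 h (SD, n = 9, 10, 10 and 11). Hnrnpab, a binder of AU-rich RNA, was higher by 1.00, 1.38 and 1.17, and Hnrnpa2b1, which reads RNA carrying m6A and opposes SR proteins, by 0.68, 1.31 and 0.81, all called. The value of Hnrnpa2b1 at 1 h was among the weakest: without replicate 13 of 1 h it was 0.64, without replicate 11 of 4 h it was 0.51, and neither was called. In batch 2 alone Hnrnpab at 1 h was higher by 0.60 and Hnrnpa2b1 by 0.51, and neither was called there.

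Hnrnpu, a nuclear scaffold protein that also binds chromatin, was higher at 4 h than at 0 h by 0.93 ± 0.23 and lower at 8 h than at 4 h by a log2 fold change of -0.96 ± 0.18 (SE, both called). Hnrnpa1, a repressor of exon inclusion, rose at 4 h against 1 h by 0.66 ± 0.13 and fell at 8 h against 4 h by 0.41 ± 0.14 (SE, log2). Hnrnpk, which binds C-rich RNA, rose by 0.57 ± 0.10 and fell by 0.48 ± 0.11 in the same 2 comparisons. Hnrnpm and Hnrnpc, a binder of U tracts, rose at 4 h against 1 h by 0.58 and 0.49.

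A few hnRNP genes went the other way. Hnrnpr, which binds transcripts in nucleus and cytoplasm, was lower than at 0 h by -0.58, -0.42 and -1.19 on the log2 scale at 1, 4 and 8 h, each called, although the value at 4 h was 0.12 on the deposited TPM scale. Its calls at 1 h and 4 h were both lost without replicate 11, 12 or 13 of 1 h taken out singly, with values between -0.37 and -0.49 at 1 h, and the call at 8 h was kept. Hnrnpa0 was lower at 8 h than at 0 h by -1.39 ± 0.42 (SE, log2), but 1 follicle at 0 h had 121 CPM where the others lay between 13.9 and 26 CPM. With that follicle and 3 other libraries that stood apart left out, the log2 fold change was -0.71 and was not called. Hnrnph3 was no such exception at 8 h against 4 h, where 10 of the 19 tested hnRNP genes fell. It was 1 of them, with a fall of 0.84 ± 0.20 (SE, log2). Hnrnpul1 was the 1 hnRNP gene that rose at 8 h against 4 h, by 0.80 ± 0.17 (SE, log2), with a range of 15.8 to 36.0 CPM at 8 h and 9.34 to 16.4 CPM in batch 1 at 4 h, ranges that overlap at their edge. At 4 h against 1 h it fell by 0.46 in the joint fit, and the batches differed in sign, with -0.69 in batch 1 alone and 0.63 in batch 2 alone.

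**Figure D2:**
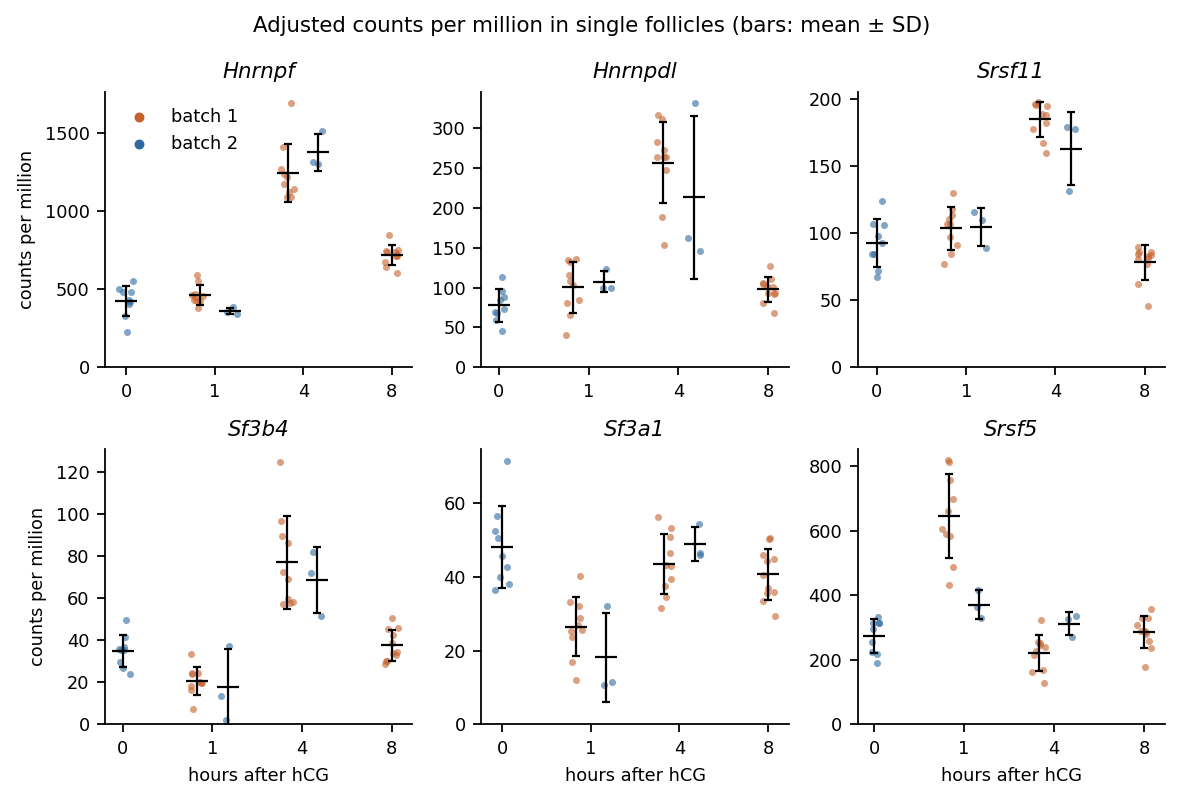
TMM-scaled CPM (vertical axis, from 0) in each follicle at 0, 1, 4 and 8 hours after hCG for Hnrnpf, Hnrnpdl, Srsf11, Sf3b4, Sf3a1 and Srsf5. Points are follicles, orange for batch 1 and blue for batch 2, and bars are the mean ± SD of each time and batch. Hnrnpf at 4 h lies at 1090.0 CPM or more in all 13 follicles, and Srsf5 at 1 h is high in batch 1 but not in batch 2.

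SR protein genes did not share 1 course. At 1 h against 0 h 1 of 10 rose and 2 fell, at 4 h against 1 h 3 rose and 2 fell, at 8 h against 1 h 1 rose and 6 fell, and at 8 h against 4 h 5 fell. Over all genes 12.4% and 22.2%, 26% and 28.9%, and 23.2% and 25.9% rose and fell in the first 3 of these, and 21.6% fell in the last. Srsf11, a protein with an arginine-serine tail that joins splice site complexes, had lowest, median and highest values of 67.5, 92.6 and 124 CPM at 0 h, 76.9, 107 and 130.1 CPM in batch 1 at 1 h, 159.8, 188 and 197 CPM in batch 1 at 4 h, and 45.5, 82.8 and 89.7 CPM at 8 h. The batch 2 follicles had 109, 115 and 88.5 CPM at 1 h and 179, 177 and 131 CPM at 4 h. All follicles at 4 h were above all follicles of the other times. Srsf11 was higher at 4 h than at 1 h by 0.79 ± 0.10 and lower at 8 h than at 4 h by a log2 fold change of -1.22 ± 0.11 (SE; adjusted p = 1.0e-08 and 1.7e-12, edgeR). Srsf9, another SR protein, was low in level at a mean of 5.27 ± 1.94 CPM at 0 h (SD, n = 9), rose by 1.19 ± 0.31 at 4 h against 0 h and fell by 1.29 ± 0.24 at 8 h against 4 h (SE, log2).

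Srsf5, whose protein binds exonic enhancers and shuttles to the cytoplasm, rose at 1 h. Its lowest, median and highest values were 189.8, 297 and 333 CPM at 0 h, 433, 632 and 819 CPM in batch 1 at 1 h, 128, 233 and 322 CPM in batch 1 at 4 h, and 179, 288 and 358 CPM at 8 h. The batch 2 follicles had 417, 365 and 329.7 CPM at 1 h and 328, 336 and 272 CPM at 4 h. In batch 1 the 1 h follicles lay above all others, while in batch 2 the ranges at 1 h and 4 h overlapped. In the joint fit Srsf5 was 2.04-fold higher at 1 h than at 0 h (log2 1.03 ± 0.21 SE, adjusted p = 0.00021, edgeR), 2.38-fold lower at 4 h than at 1 h (log2 -1.25 ± 0.15 SE) and lower by -1.04 ± 0.16 at 8 h than at 1 h. Within batch 2 alone, the only batch with 0 h follicles, the rise was 0.49 and was not called, and at 4 h against 1 h the value was -0.21. On plate 1 alone, Srsf5 was lower at 8 h than at 1 h by -1.15 (log2) and was called.

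Srsf4, an SR protein with a long arginine-serine tail, was lower at 1 h than at 0 h by -1.10 ± 0.25 and higher at 4 h than at 1 h by 0.90 ± 0.18 (SE, log2). It averaged 43.4 ± 16.4 CPM at 0 h, 22.7 ± 6.24 and 14.5 ± 3.76 CPM at 1 h in batches 1 and 2, 37.0 ± 7.0 and 44.3 ± 4.63 CPM at 4 h, and 38.2 ± 7.03 CPM at 8 h (SD, n = 9, 10, 3, 10, 3 and 11). Both batches had the low value at 1 h, with log2 fold changes at 4 h against 1 h of 0.77 in batch 1 alone and 1.65 in batch 2 alone, both called. The value at 1 h was -0.61 and was not called without the libraries with the suffix _ds in their labels, whose meaning the labels do not give. Srsf10, known as a splicing repressor when dephosphorylated, fell by 0.56, Srsf6 by 0.50 and Srsf7, an export adaptor, by 0.76 at 8 h against 4 h on the log2 scale. Srsf6 also fell at 8 h against 0 h by 0.64, a value that was 0.04 on the deposited TPM scale.

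Among the 12 snRNP genes, 4 fell at 1 h against 0 h, 5 rose at 4 h against 1 h, and 1 rose and 3 fell at 8 h against 4 h, beside 22.2%, 26%, and 19.8% and 21.6% of all genes. Most of the rises at 4 h were in the Sm ring, with Snrpd1 at 1.07 ± 0.17, Snrpd3 at 0.93 ± 0.18, Snrpb at 0.80 ± 0.11 and Snrpf at 0.79 ± 0.15 against 1 h (SE, log2), while the ring proteins Snrpe, Snrpg and Snrpd2 had -0.17, 0.02 and -0.04 and were not called. Snrpa1, a protein of the U2 snRNP, rose by 1.13 ± 0.14. Snrpb, which supplies SmB to the ring, had lowest, median and highest values of 197, 294 and 425 CPM at 0 h, 189, 259 and 320.3 CPM in batch 1 at 1 h, 304, 431 and 548 CPM in batch 1 at 4 h, and 243, 292 and 375 CPM at 8 h. In batch 2 it had 215, 196 and 263 CPM at 1 h and 511, 367 and 384 CPM at 4 h. The groups at 4 h and 1 h did not overlap in batch 2 and overlapped slightly in batch 1. Snrpd1 fell again at 8 h against 4 h by 1.08 ± 0.17 (SE, log2).

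Snrpb2, Snrpe and Snrpa were lower than at 0 h at each later time. Snrpb2, a U2 snRNP protein that works with Snrpa1, had 22.8, 41.6 and 83.3 CPM at 0 h as its lowest, median and highest values, 10.7, 18.2 and 31.1 CPM in batch 1 at 1 h, 6.72, 20.1 and 24.6 CPM in batch 1 at 4 h and 7.24, 16.3 and 40.8 CPM at 8 h. In batch 2 it had 0, 18.5 and 2.68 CPM at 1 h and 20.4, 24.9 and 15 CPM at 4 h. In batch 2 the 1 h follicles lay below all of 0 h, while those at 4 h overlapped its lower end. Its log2 fold changes against 0 h were -1.78 ± 0.42, -1.61 ± 0.38 and -1.81 ± 0.45 at 1, 4 and 8 h (SE, all called), and batch 2 alone gave -2.82 at 1 h, called, and -1.14 at 4 h, not called. Snrpe, an Sm ring protein, was lower by -0.90, -1.07 and -1.26, and Snrpa, the U1 snRNP protein that binds the second stem loop of U1 RNA, by -0.86, -1.01 and -0.80, all called. Without replicate 11 of 1 h, Snrpa at 1 h was -0.57 and at 8 h -0.48, and neither was called. From 1 h to 4 h Snrpa moved by -0.37 in batch 1 and 0.68 in batch 2 (log2), a difference that was not called. In batch 2 alone, the only batch with 0 h follicles, Snrpa at 4 h against 0 h was not called. Snrpd3 was lower at 1 h than at 0 h by -0.81, a call that was lost without replicate 11 (-0.67) or 13 (-0.60) of 1 h. Snrpg rose at 8 h against 4 h by 0.44 ± 0.16 (SE, log2), with 29.0, 32.1 and 39.4 CPM at 8 h as lowest, median and highest values and 7.70, 25 and 28.4 CPM in batch 1 at 4 h. These 2 groups did not overlap. Snrpn, the SmN protein from an imprinted locus, had a mean of 12.1 ± 2.52 CPM at 0 h (SD, n = 9) and was called nowhere. It shares exons with Snurf, and its coding sequence is close to that of Snrpb.

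Of the 9 SF3 genes, 1 rose and 6 fell at 1 h against 0 h, and 4 rose and 1 fell at 4 h against 1 h, beside 12.4% and 22.2%, and 26% and 28.9%, of all genes. Sf3b4, which lies on the pre-mRNA just before the branch point, had the largest rise of the 50 genes at 4 h against 1 h. Its lowest, median and highest values were 24.1, 35.3 and 49.7 CPM at 0 h, 7.12, 19.9 and 33.5 CPM in batch 1 at 1 h, 57.5, 70.8 and 125 CPM in batch 1 at 4 h, and 28.9, 34.5 and 50.5 CPM at 8 h. In batch 2 it had 13.3, 2.31 and 37.5 CPM at 1 h and 82.2, 51.7 and 72.3 CPM at 4 h. All follicles at 4 h lay above all others, and the 3 batch 2 follicles at 1 h spread from far below to inside the range at 0 h. At 4 h against 1 h Sf3b4 was 3.74-fold higher (log2 1.90 ± 0.18 SE, adjusted p = 1.8e-12, edgeR), with 1.91 in batch 1 alone and 2.04 in batch 2 alone, and at 8 h against 4 h it fell by 1.05 ± 0.17 (SE). The fall at 1 h against 0 h, -0.97 ± 0.26, was -0.99 in batch 2 alone, not called, and -0.77 without the _ds libraries, not called. With all libraries thinned to the shallowest it was 0.05. Its exons overlap those of the antisense gene Gm17690, and the libraries keep no strand.

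Sf3b3, the large scaffold subunit beside Sf3b1, rose by 1.17 ± 0.13 at 4 h against 1 h and fell by 0.91 ± 0.14 at 8 h against 4 h (SE, log2), and its exons overlap Cog4 on the other strand. Sf3a1, which bridges SF3A to U2, had 36.4, 45.5 and 71.4 CPM at 0 h as lowest, median and highest values, 12, 26.3 and 40.3 CPM in batch 1 at 1 h, 31.5, 43.1 and 56.1 CPM in batch 1 at 4 h and 29.4, 40.5 and 50.4 CPM at 8 h. In batch 2 it had 10.7, 11.6 and 32.2 CPM at 1 h and 45.9, 54.3 and 46.5 CPM at 4 h. All 3 batch 2 follicles at 1 h lay below all 9 at 0 h. Sf3a1 was lower at 1 h than at 0 h by -1.09 ± 0.22 (-1.41 in batch 2 alone, called) and higher at 4 h than at 1 h by 0.92 ± 0.15 (SE, log2). Sf3a3, its partner, was lower than at 0 h by -1.31, -0.85 and -1.03 at 1, 4 and 8 h, all called. Sf3b5, a small subunit, was lower by -0.97, -0.93 and -1.05, all called, but at -0.53, -0.43 and -0.54 none was called without the _ds libraries. Sf3b1, which clamps the branch point, was the SF3 gene that rose at 1 h, by 0.70 ± 0.20 (SE, log2), to 519 ± 160.4 and 440.5 ± 78.0 CPM in batches 1 and 2, against 295 ± 63.1 CPM at 0 h (SD, n = 10, 3 and 9). Batch 2 alone gave 0.63, not called.

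**Figure D3:**
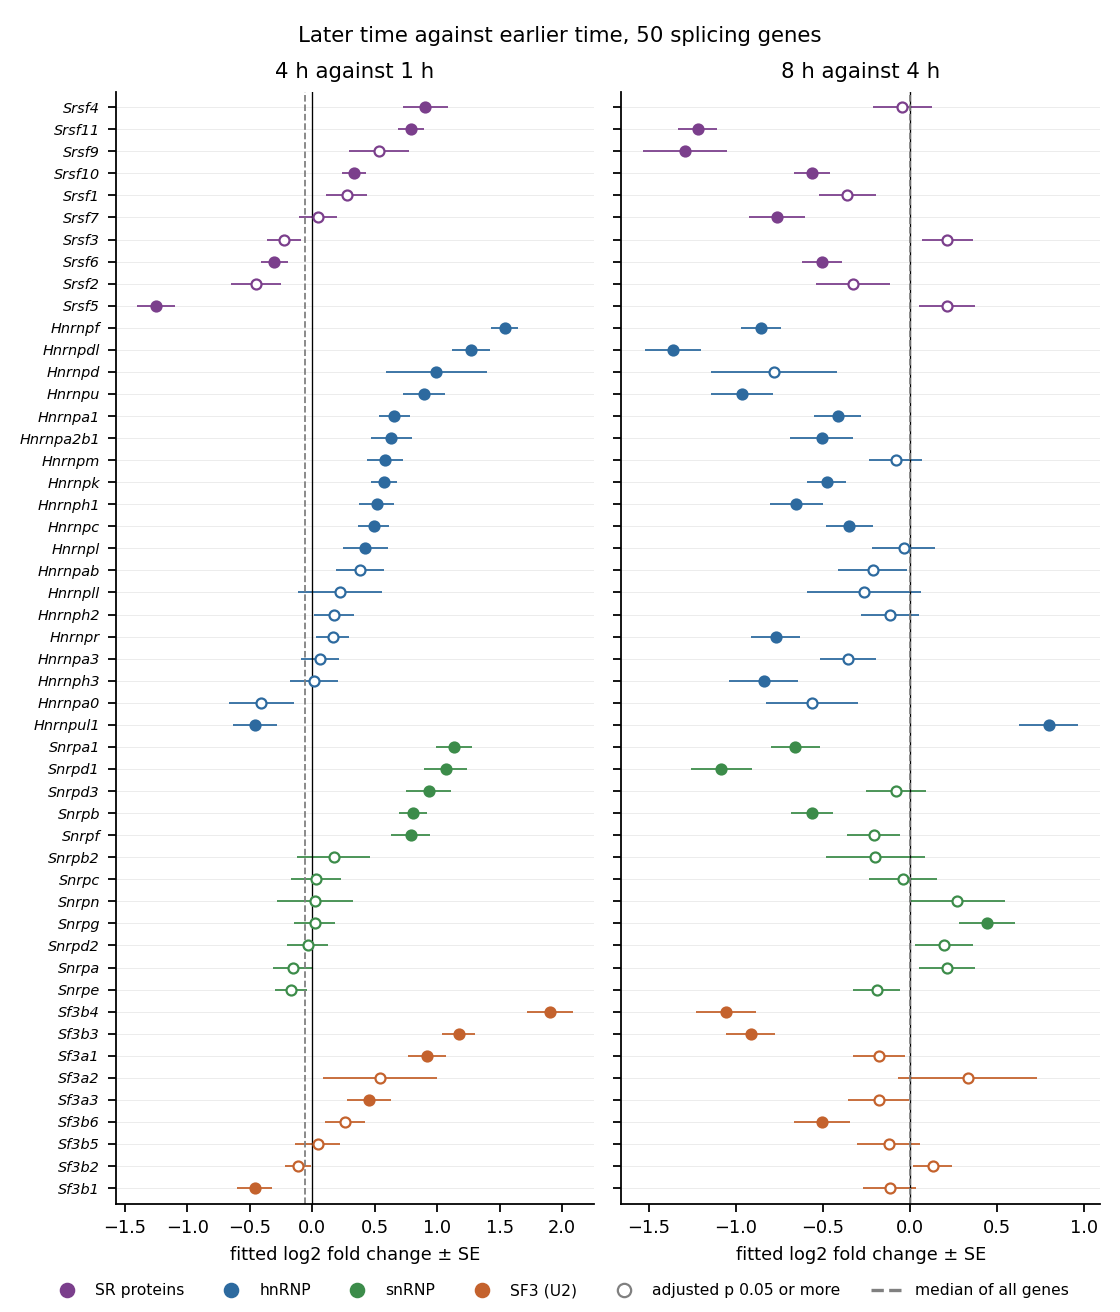
Fitted log2 fold change (horizontal axis) ± SE of the 50 tested genes at 4 h against 1 h (left) and 8 h against 4 h (right), ordered by class and by the left panel. Filled points have an adjusted p under 0.05 in edgeR, and the dashed line is the median of all genes. Of the filled points, 23 are above 0 and 4 below on the left, and 2 above and 21 below on the right.

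The step at 4 h against 1 h was the single one that both batches held. In batch 1 alone, edgeR called 21 genes higher and 6 lower of 49, where 30.0% and 26.9% of all genes were. In batch 2 alone, with 3 follicles a time, it called 6 higher and 0 lower of 51, where 6.15% and 5.88% of all genes were. The 6 were Hnrnpab, Hnrnpf, Sf3a1, Sf3b3, Sf3b4 and Srsf4. At an unadjusted p below 0.05, 19 were higher and 0 lower in batch 2. The share of all genes at that unadjusted threshold was not counted, so these 2 counts have no background. The median log2 fold change of the splicing genes was 0.35 in batch 1 and 0.63 in batch 2, beside 0.02 and 0.00 for all genes. Of 47 splicing genes in a test of the difference between batches, 33 had a step of the same sign in both batches. Over 5820 genes that test called 1 of the 47, Srsf5, where 5.09% of all genes were called. Its step was -0.26 in batch 2 and -1.51 in batch 1, a difference of 1.26 ± 0.31 on the log2 scale (SE, adjusted p = 0.016, edgeR). DESeq2 called 2, Srsf5 and Hnrnpr, where 492 of all 5818 genes were called.

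Against 0 h, batch 2 alone held 3 follicles at each later time. At 1 h it called 1 higher and 6 lower, where 7.47% and 10.7% of all genes were, and at 4 h 13 higher and 1 lower, where 13.7% and 19.7% of all genes were. The gene higher at 1 h was Hnrnph1 (1.05 on the log2 scale), and the lower ones were Hnrnpr, Sf3a1, Sf3a3, Snrpa, Snrpb2 and Srsf4. The gene lower at 4 h was Snrpe, by -1.08. No batch held both 0 h and 8 h, so comparisons of these times rest on differences carried across batches.

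**Figure D4:**
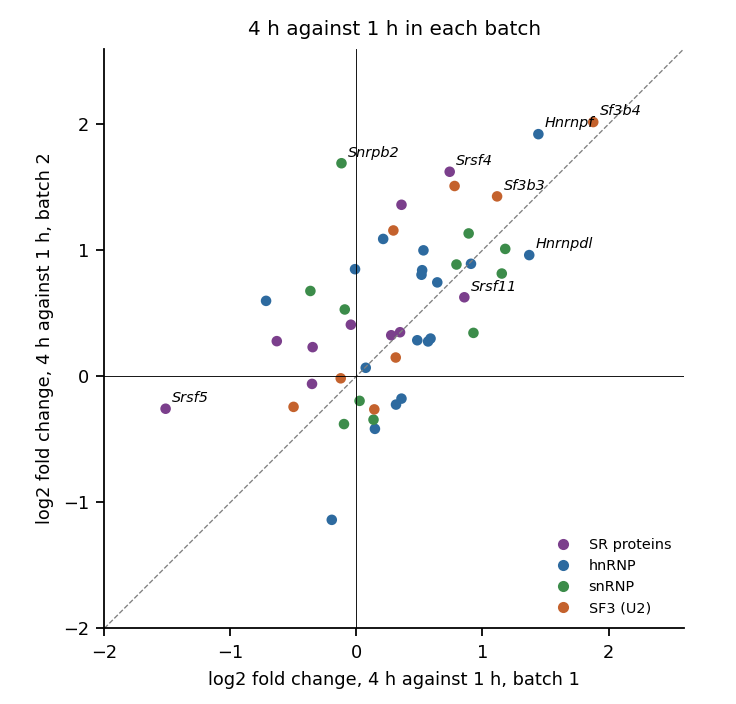
Log2 fold change at 4 h against 1 h of the 47 genes in the test of batches, in batch 1 (horizontal axis) and in batch 2 (vertical axis), coloured by class, with a dashed line where both are equal. Sf3b4, Hnrnpf and Sf3b3 lie high in both batches, and Srsf5 lies at -0.26 in batch 2 and -1.51 in batch 1.

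Levels between genes are given per length, as the deposited TPM. By median over 46 follicles Hnrnpk was the most abundant of the 51 at 1637 TPM, before Hnrnpa2b1 at 1321, Hnrnpa1 at 1184 and Hnrnpf at 452 TPM. By the same median Srsf3 had 354 TPM, Srsf5 272, Snrpb 326, Snrpe 324 and Sf3b1 187 TPM. The order within a class moved with time. Srsf5 had mean levels of 526 and 349 TPM at 1 h in batches 1 and 2, above 382 and 330 TPM for Srsf3, but 185 TPM at 0 h, where Srsf3 had 312 TPM. Snrpe was above Snrpb at 0 h (435 and 248 TPM), and Snrpb above Snrpe in batch 1 at 4 h (518 and 325 TPM). Hnrnpul2 was lowest, at 0.77 TPM. The 51 genes together averaged 5060 ± 996 TPM at 0 h, 7269 ± 1001 and 7018 ± 919 TPM at 1 h in batches 1 and 2, 11049 ± 1414 and 11600 ± 2254 TPM at 4 h, and 8790.1 ± 1195 TPM at 8 h (SD, n = 9, 10, 3, 10, 3 and 11). Left without the 3332 genes and rescaled, the 0 h sum was 7955 ± 1168 TPM, which lies above both 1 h values, so the order of 0 h and 1 h turned with the scaling. The sum at 4 h stayed the highest on either scale.

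The hnRNP genes made up most of that sum, with 2892 ± 603 TPM at 0 h (4540.1 ± 687 TPM once rescaled, close to both 1 h values), 4639 ± 808 and 4571 ± 775 TPM at 1 h in batches 1 and 2, 8072 ± 1088 and 8547 ± 2196 TPM at 4 h and 6107 ± 872 TPM at 8 h. SR protein genes summed to 832 ± 159 TPM at 0 h (1314 ± 234 TPM once rescaled), 1343 ± 185 and 1110.1 ± 47.6 TPM at 1 h, 1132 ± 135 and 1285 ± 92.1 TPM at 4 h, and 1100.3 ± 150.0 TPM at 8 h. The composition within a class also shifted. Srsf5 made up 22.3% of SR protein TPM at 0 h, 39.0% and 31.5% at 1 h in batches 1 and 2, 18.5% and 23.5% at 4 h and 25.7% at 8 h. Sf3b1 made up 35.8% of SF3 TPM at 0 h, 57.9% and 60.1% at 1 h, 39.6% and 41.1% at 4 h, and 45.5% at 8 h. Sf3b4 made up 6.3%, 3.5% and 3.5%, 12.3% and 11.0%, and 7.4% of it in the same order. Snrpe made up 41.3% of snRNP TPM at 0 h, 34.1% and 36.1% at 1 h, 23.4% and 21.6% at 4 h, and 24.9% at 8 h, and Snrpb 24.1%, 29.3% and 28.0%, 37.4% and 39.7%, and 31.3%. Hnrnpk kept between 29.4% and 32.0% of hnRNP TPM in all groups.

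**Figure D5:**
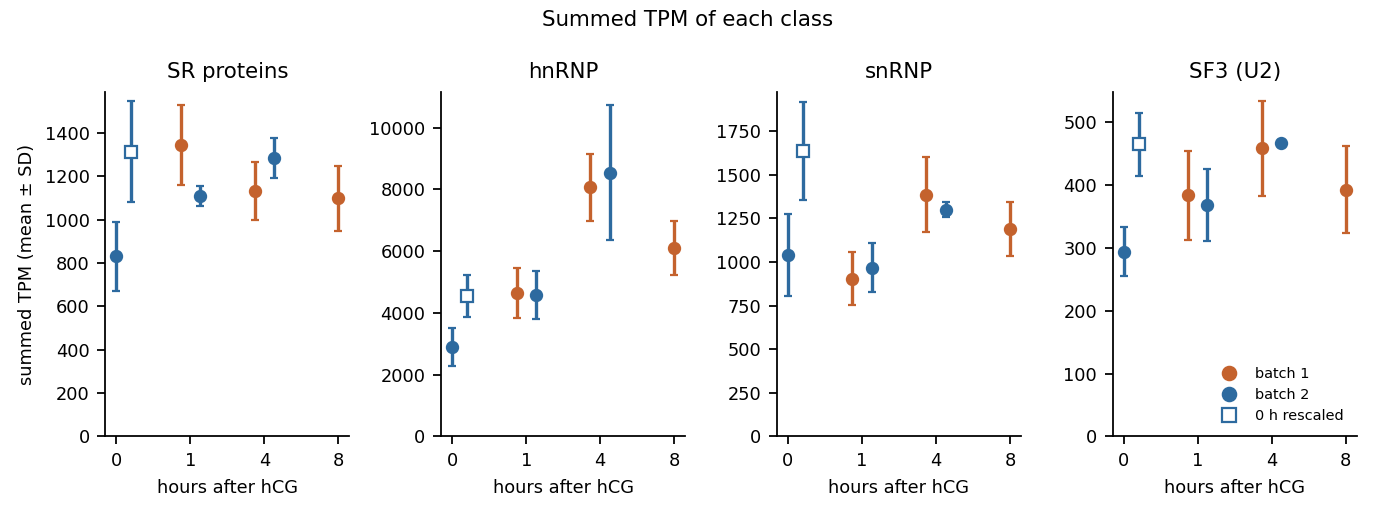
Summed TPM (vertical axis, from 0) of each class at 0, 1, 4 and 8 hours after hCG, as mean ± SD over follicles of a time and batch, orange for batch 1 and blue for batch 2. Open squares give 0 h after leaving out the 3332 genes and rescaling. The hnRNP sum is highest at 4 h in both batches, at 8072 and 8547 TPM.

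The SD of log2 CPM around the mean of time and batch had a median of 0.39 over the tested splicing genes, between 0.20 for Srsf10 and 0.97, and 0.58 over all genes tested. Well-counted genes have less counting error, and the splicing genes were not matched to others on level.

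The rest of the splicing machinery was described with 10 lists of 169 genes outside the name rule, of which 152 were tested. At 4 h against 1 h 63 rose and 22 fell with a median log2 fold change of 0.28, and at 8 h against 4 h 12 rose and 55 fell with a median of -0.25. As shares these were 41.4% and 14.5%, beside 26% and 28.9% of all genes, and 7.89% and 36.2%, beside 19.8% and 21.6% of all genes. The same shares of all genes apply to the counts of single lists at these 2 steps. The list of 34 hnRNP-like and other RNA-binding regulators had 12 rises and 3 falls of 29 tested at 4 h against 1 h, and 1 rise and 17 falls at 8 h against 4 h. Ptbp1, which represses exons through pyrimidine tracts, averaged 150.1 ± 42.5 CPM at 0 h, 333 ± 49.4 and 342 ± 30.4 CPM at 1 h in batches 1 and 2, 617 ± 94.9 and 524 ± 114 CPM at 4 h and 367 ± 36.9 CPM at 8 h (SD, n = 9, 10, 3, 10, 3 and 11). Ptbp1 was higher than at 0 h by 1.09, 1.92 and 1.20 on the log2 scale. Cirbp, the cold-inducible RNA-binding protein, was lower than at 0 h by -3.89 at 4 h and -3.47 at 8 h, with 7.14 ± 2.52 CPM in batch 1 at 4 h, against 88.5 ± 12.9 CPM at 0 h.

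Among kinases of SR proteins, 2 of 7 tested rose and 0 fell at 1 h against 0 h, beside 12.4% and 22.2% of all genes. Clk1, a nuclear kinase of arginine-serine tails, averaged 92.3 ± 22.9 CPM at 0 h, 384 ± 123 and 316 ± 10.4 CPM at 1 h, 133 ± 29.7 and 139.6 ± 27.9 CPM at 4 h, and 94.1 ± 29.0 CPM at 8 h, with batch 1 before batch 2 where both are given (SD). It was higher at 1 h than at 0 h by 1.92 ± 0.22 and lower at 4 h than at 1 h by -1.45 ± 0.16 (SE, log2), and the 1 h means of both batches stood far above 0 h. Srpk1, which phosphorylates SR proteins in the cytoplasm, was higher than at 0 h by 0.56, 1.39 and 0.64 at 1, 4 and 8 h. Of the 7 kinases, 3 rose and 2 fell at 4 h against 1 h, and 4 fell at 8 h against 4 h.

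Of 12 tested factors that build Sm rings, 8 rose and 1 fell at 4 h against 1 h, and 1 rose and 6 fell at 8 h against 4 h. Wdr77, a partner of the methyltransferase that marks Sm proteins, averaged 32.3 ± 8.50 CPM at 0 h, 37.6 ± 12.5 and 20.3 ± 6.64 CPM at 1 h, 115 ± 25.7 and 151 ± 24.8 CPM at 4 h, and 44.0 ± 12.1 CPM at 8 h. It rose at 4 h against 1 h by 1.87 ± 0.17 and fell at 8 h against 4 h by 1.50 ± 0.18 (SE, log2). Prmt1, another arginine methyltransferase, was instead highest at 8 h, higher than at 4 h by 1.01 ± 0.18.

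Among 19 U1 and U2 factors outside the rule, 10 rose and 3 fell at 4 h against 1 h, and 2 rose and 6 fell at 8 h against 4 h. Dhx15, a helicase that takes spliceosomes apart, rose by 1.10 and fell by 1.15 in those 2 comparisons. Rbm39, an RNA-binding protein near U2AF, was lower at 4 h than at 1 h by -1.28, but its means at 1 h were 683 ± 109 CPM in batch 1 and 342 ± 80.6 CPM in batch 2. Of 20 tri-snRNP genes 7 rose at 4 h against 1 h, of 23 genes of the catalytic step 9 rose and 5 fell, and of 18 SR-related genes 3 rose and 5 fell, the last being shares of 16.7% and 27.8%, below those of all genes. The LSm ring had 3 rises and 1 fall of 7, the exon junction complex 3 and 2 of 11, and the importers of RNA-binding proteins 5 rises of 6. The importers Ipo5 and Kpnb1 rose by 1.24 and 1.19 at 4 h against 1 h, and Eif4a3, the anchor of the exon junction complex, by 0.86.

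The authors' deposited table compares each time with 0 h. In the authors' deposited table Hnrnpf was 2.96-fold higher at 4 h and Hnrnpdl 3.14-fold higher. In the same authors' deposited table Srsf5 was 2.05-fold higher at 1 h, and Snrpb2 had signed fold changes of -2.93, -2.62 and -2.76 at 1, 4 and 8 h, where a negative sign marks a lower level. The authors' deposited table gives no model terms, so whether batch entered is not stated.

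Exons of 19 of the 51 genes are overlapped by a gene on the other strand in GENCODE M21, among them Hnrnpab, Hnrnpk, Hnrnpu, Snrpa, Snrpd3 and Srsf2, and the libraries do not mark strand. Another gene on the same strand overlaps 6. How reads shared with processed copies were counted is not given in the sources used here, which bears on Hnrnpa1 and the Sm genes in particular.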

How the data were processed

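Polyadenylated RNA of 46 single follicles was made into Smart-Seq2 cDNA and Nextera XT libraries, which keep no strand, per the labels' protocols. Reads were processed with GRCm38, HISAT2, Partek and DESeq2, per the submitters' processing notes, which give no versions or order. The deposited counts are whole numbers per gene that the authors adjusted for batch with ComBat-seq, per the file headers and names, with settings not given in the sources used here. The deposited TPM values were made by the authors from those adjusted counts. In the authors' deposited table the fold changes are signed scores, with p-values and false discovery rates, and its normalized signal sums were not used. In each of the count and TPM tables, 10 columns of no described sample were not used.

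Counts were modelled in edgeR 4.0.16 under R 4.3.3 (TMM factors, filterByExpr, time and batch as terms, biological coefficient of variation 34%). The prior count was 2 for log2 CPM, and an SE is the fold change over the root of F. DESeq2 1.42.0 and limma 3.58.1 on log2(TPM + 1), with a mean TPM of at least 1, were alternatives. Adjusting counts for batch before deposit and again in the fit can shrink the spread and make p-values too small, and the first adjustment may also have changed fold changes against 0 h, which lies wholly in batch 2 (not tested). Libraries held 241442 to 5185044 counts, with no 2 libraries alike. On simulated counts for 1 h against 0 h over 8352 genes, 44 of 100 genes changed by 1 on the log2 scale and 93 of 100 changed by 2 were recovered, with 7 false calls.

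Members and lists were chosen with earlier results of these data known. Named genes are those with up to 4 largest called rises and falls in each comparison, the 3 smallest joint p-values in each class, a list of 10 set genes and 2 genes of each pathway list. A few genes outside that rule (Hnrnpk, Hnrnpc, Hnrnpm, Hnrnpd, Sf3a2, Sf3b2, Srsf2, Snrpc, Snrpd2, Snrpf, Srsf1, Srsf10, Hnrnpll, Hnrnpul2) were named after their values were seen. Same-numbered follicles were not paired (the check is in the closing section). Alternatives covered normalization, filters, batch and library set terms, single batches, single libraries, thinning and TPM scale.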

Additional observations from a re-analysis of the deposited data

Results flagged for a closer look

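Among the named genes, 99 groups of follicles with 9 or 10 members were searched for a follicle far from the others. These were the follicles at 0 h and the batch 1 follicles at 1 h and 4 h. Follicles at 8 h and the batch 2 follicles at 1 h and 4 h were not searched. In 9 of the 99 groups such a follicle was found. Chance marks about 1 in 20 groups. Replicate 10 of 4 h, in batch 1, was lowest for 3 of them, with 7.70 CPM for Hnrnph3, 7.70 CPM for Snrpg and 0 CPM for Snrpn. It was the shallowest library of all, at 241442 counts. At 0 h, replicate 3 was highest for Hnrnpa0 at 121 CPM and for Srsf9 at 10.2 CPM. At 1 h, replicate 9, the shallowest library of that time at 302737 counts, was lowest for Hnrnpab at 17.8 CPM and for Sf3b4 at 7.12 CPM. At 4 h, replicate 4 was lowest for Sf3a3 at 22.6 CPM and replicate 8 for Snrpd1 at 37.4 CPM.

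The step at 4 h against 1 h differed between batches for Srsf5 by 1.26 on the log2 scale, batch 2 minus batch 1, in the test of time by batch.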

How the results depend on the processing

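For 33 named genes in 6 comparisons, 3640 of 4148 alternative values kept direction and side of the threshold, 317 lost the call, 163 gained one and 28 changed sign. With libraries thinned to the shallowest, 37 of the 50 splicing genes could be tested, and 2, 7 and 2 were called at 1, 4 and 8 h against 0 h, 7 at 4 h against 1 h, 2 at 8 h against 1 h, 3 at 8 h against 4 h and 11 in the joint test, beside 20, 26, 16, 27, 20, 23 and 41 at full depth. Of all 3636 genes tested after thinning, 259, 652, 501, 861, 808, 433 and 1203 were called in the same order. The 2 splicing genes called at 1 h were both higher, where 225 of the 259 were. Batch 2 alone, with fewer follicles, called 7, 14 and 6 at 1 h and 4 h against 0 h and at 4 h against 1 h. Of all 10330 genes, 1879, 3451 and 1242 were called there. The library set term called 17 at 4 h against 1 h and 10 at 8 h against 4 h, beside 2054 and 1446 of all 8629 genes. Without the _ds libraries 10 were called at 1 h against 0 h, beside 2185 of all 9563 genes. At 8 h against 0 h limma called 27 on log2(TPM + 1) and 26 on log2(TPM + 0.1), beside 5318 and 4979 of all 11834 genes. DESeq2 called 2 splicing genes in the test of batches, where edgeR called 1. Over all genes these tests of batches called 492 of 5818 and 296 of 5820. Leaving out 1 of the 6 batch 2 follicles of 1 h and 4 h (other follicles were not left out singly) gave 16 to 20 calls at 1 h against 0 h, 23 to 26 at 4 h against 0 h, 16 to 18 at 8 h against 0 h, 25 to 27 at 4 h against 1 h, 20 to 22 at 8 h against 1 h and 22 to 24 at 8 h against 4 h. Over all genes these were 2364 to 2893, 4314 to 4618, 3593 to 3826, 4636 to 4723, 4235 to 4277 and 3572 to 3624. The fits tested 8585 to 8612 genes. Higher and lower calls on deposited and on rescaled TPM were 29 and 1 at 4 h against 1 h and 20 and 5 at 8 h against 1 h on both, beside 23 and 4 and 9 and 11 on counts, and rescaled TPM gave 2 and 18 at 8 h against 4 h. Over all genes, deposited TPM gave 3270 and 1923, and 3594 and 1550, of 11834. Rescaled TPM gave 3320 and 1974, 3670 and 1582, and 1946 and 1419, of 11159. Without the 3332 genes the count fit gave 7 and 12 at 1 h, 21 and 6 at 4 h and 9 and 10 at 8 h against 0 h, and 14 and 10 at 8 h against 1 h. Over all 8835 genes tested in that fit, these were 1241 and 1715, 2357 and 2450, 1914 and 2110, and 2274 and 2073. The rescaled TPM was chosen after seeing the data. Replicate numbers were not shown to pair follicles: of 53 same-numbered pairs 10 had correlations over 0.1 (range -0.202 to 0.245). In 5 of 30 batch 1 pairings, which reuse follicles, the best partner had the same number. With the replicate block 0, 7 and 0 splicing genes were called at 1, 4 and 8 h against 0 h, beside 355, 1479 and 852 of all 8629 genes. Signs changed on TPM (log2 values with pseudocounts 1 and 0.1) at 1 h against 0 h for Hnrnpf (0.42 and 0.42), at 4 h against 0 h for Hnrnpr (0.12 and 0.12) and Srsf6 (0.47 and 0.48), and at 8 h against 0 h for Hnrnpu (0.71 and 0.73), Snrpb (0.66 and 0.66), Srsf3 (0.51 and 0.51), Srsf5 (0.62 and 0.63) and Srsf6 (0.041 and 0.042). Values without the TPM filter were alike. Signs also changed with thinning for Sf3b4 at 1 h against 0 h (0.053) and Snrpa at 8 h against 0 h (0.049), with the library set term for Hnrnpul1 at 4 h against 1 h (0.61) and 8 h against 4 h (-0.42) and Srsf5 at 8 h against 4 h (-0.92), and in batch 2 alone for Hnrnpul1 at 4 h against 1 h (0.63). Apart from the smaller samples named, the cause was not tested.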
